A study of Mus musculus with 12 samples.

Results

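The genes described here are 10 genes that mark macrophages in mouse lung and in lung tumors, measured by 13 probe sets of the 45101 on a mouse whole-genome Affymetrix array. The members were chosen by probe set number: Cd68, Adgre1, Marco, Chil3, Trem2, Gpnmb, Spp1 and Ctsk have 1 probe set each, Lyz2 has 2 and Csf1r has 3. The gene names come from the pairing of names and probe set numbers that defined this list, since no annotation of the array was used here. All 13 probe sets passed the filter on dim values, a log2 signal over 4.18, the table-wide median, in 4 or more of the 12 arrays, and 12 of them lay above that level in every array. Marco did so in 9 arrays.

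Total RNA of 12 tissue pieces from FVB mice, an inbred strain, was hybridized in 3 groups of 4. Non-transgenic lung came from FVB mice without the transgene. Adjacent normal lung and lung adenocarcinoma both came from FVB mice that carry wild-type human cyclin E, a regulator of entry into S phase, under the human surfactant protein C promoter, which is active in alveolar type II epithelial cells and not in macrophages. All mice were recorded as male and were 7 to 11 months old, and tumor and normal tissue were told apart by gross pathology. The methods describe the adjacent lung as histopathologically normal. The label on each transgenic piece names the neighbouring tissue code, which implies 1 mouse per replicate number, and the design names 4 transgenic mice, whereas the methods call the 12 samples independent. Each value is 1 log2 signal per probe set and array, so a difference of 1 is a doubling of signal, and signals of different probe sets have no common scale.

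Macrophages take up and digest particles, dead cells and surfactant. Resident alveolar macrophages line the air spaces of the lung and clear surfactant lipid, interstitial macrophages lie in the tissue, and tumors hold further macrophages that derive in part from blood monocytes. Most macrophages need signalling through the receptor encoded by Csf1r to survive, and macrophages loaded with lipid or debris are known to express genes of lysosomes and lipid sensing such as Trem2, Gpnmb and Ctsk. Several of the genes are not particular to macrophages: Lyz2 is also made by alveolar type II cells, Spp1 by many epithelial and tumor cells, Ctsk by osteoclasts and fibroblasts, and Gpnmb by melanocytes. In tissue RNA, fewer cells of a type and less RNA per cell cannot be told apart.

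Trem2, Gpnmb and Ctsk were the genes whose pattern over the 12 arrays was most like that of Cd68, the gene each other member was set against, as described below, so the 250 bases before the transcription start of these 4 genes are shown here (RefSeq, GRCm38.p6, 5′ to 3′ on the strand of the gene). Capitals mark GAGGAA or its reverse complement TTCCTC, the core letters bound by PU.1, the transcription factor that directs macrophage development.
Cd68 (chr11:69666171-69666420, minus strand): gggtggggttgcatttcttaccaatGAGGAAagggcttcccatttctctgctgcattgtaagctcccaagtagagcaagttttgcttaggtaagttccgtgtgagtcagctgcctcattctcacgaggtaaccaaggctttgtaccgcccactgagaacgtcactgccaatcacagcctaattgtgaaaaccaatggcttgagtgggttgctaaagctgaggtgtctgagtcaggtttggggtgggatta
Trem2 (chr17:48346151-48346400, plus strand): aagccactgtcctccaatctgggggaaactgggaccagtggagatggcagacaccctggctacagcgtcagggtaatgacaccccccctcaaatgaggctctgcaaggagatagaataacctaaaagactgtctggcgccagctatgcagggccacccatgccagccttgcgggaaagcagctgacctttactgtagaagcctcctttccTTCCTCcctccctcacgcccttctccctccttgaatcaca
Gpnmb (chr6:49036268-49036517, plus strand): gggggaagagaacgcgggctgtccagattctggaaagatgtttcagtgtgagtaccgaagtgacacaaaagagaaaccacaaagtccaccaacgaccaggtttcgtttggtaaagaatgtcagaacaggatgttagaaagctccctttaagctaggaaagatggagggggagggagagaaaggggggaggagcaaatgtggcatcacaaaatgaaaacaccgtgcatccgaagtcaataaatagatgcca
Ctsk (chr3:95498960-95499209, plus strand): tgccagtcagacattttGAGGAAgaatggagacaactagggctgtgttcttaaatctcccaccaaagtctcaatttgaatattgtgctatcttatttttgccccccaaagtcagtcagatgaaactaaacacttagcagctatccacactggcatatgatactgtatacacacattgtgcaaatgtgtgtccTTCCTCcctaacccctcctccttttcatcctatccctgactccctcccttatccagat
The core was found once in the windows of Cd68 and Trem2, 2 times in that of Ctsk and not in that of Gpnmb, and 23.3% of all 32851 windows of this length held it on either strand. CATGTG and CACGTG, letters bound by MITF and its relatives TFEB and TFE3, factors known for control of lysosomal genes, were searched on both strands and were in none of these windows. The shares of all windows with them were 12.3% and 6.02%. GAGGAA was also found once in the windows of Marco and of the first of 2 starts of Spp1, and not in those of Chil3 and Lyz2. Windows of Adgre1 and Csf1r are not covered here. A match describes the letters of a window and does not show a bound site.

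Tumor 2 and adjacent normal lung 3 stood apart from the rest. Tumor 2 held 370 of the 23538 probe sets tested more than 1 log2 unit above every other array, 5 of them members of this list. Adjacent normal lung 3 held 833 probe sets more than 1 log2 unit below every other array. The other 10 arrays held 0 to 80 probe sets that far above and 0 to 52 that far below every other array. Non-transgenic lung 1, with 42 above and 0 below, did not stand apart on this measure, but was high within its group in the macrophage genes given below. For the Gapdh and beta-actin control transcripts, 3′ minus 5′ log2 signal, a sign of RNA degradation, averaged 0.61 in tumor 2, 0.57 in adjacent normal lung 3 and 0.35 in non-transgenic lung 1, and it lay between 0.30 and 0.57 in all arrays other than tumor 2. Its part in the results was not tested, and markers of other cell types were not analysed here.

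With all 4 tumors, most macrophage probe sets differed more among the tumors than the tumors as a group differed from adjacent normal lung. The SD of the 4 tumors was larger than the difference between the means of tumor and adjacent normal lung in 12 of the 13 probe sets, all but Lyz2 1439426_X_AT, and larger than the SD of the adjacent normal lungs in all 13. How many of all probe sets tested did so was not counted, so these counts may not be particular to the members. Tumor 2 had the highest signal of all 12 arrays in 10 of the 13 probe sets, against 13.7% of the probe sets tested, and tumors 3 and 4 both lay below all 8 normal lungs in 9 of the 13, against 23.2%. In 8 of the 13, against 4.02%, tumor 2 lay above all 8 normal lungs and tumors 3 and 4 lay below them. The excess of tumor 2 over the mean of the other 3 tumors had a median of 1.85 over the members and -0.05 over all probe sets tested. No member had its 4 tumors on one side of its 4 adjacent normal lungs, where 23.5% of the probe sets tested did.

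**Figure D1:**
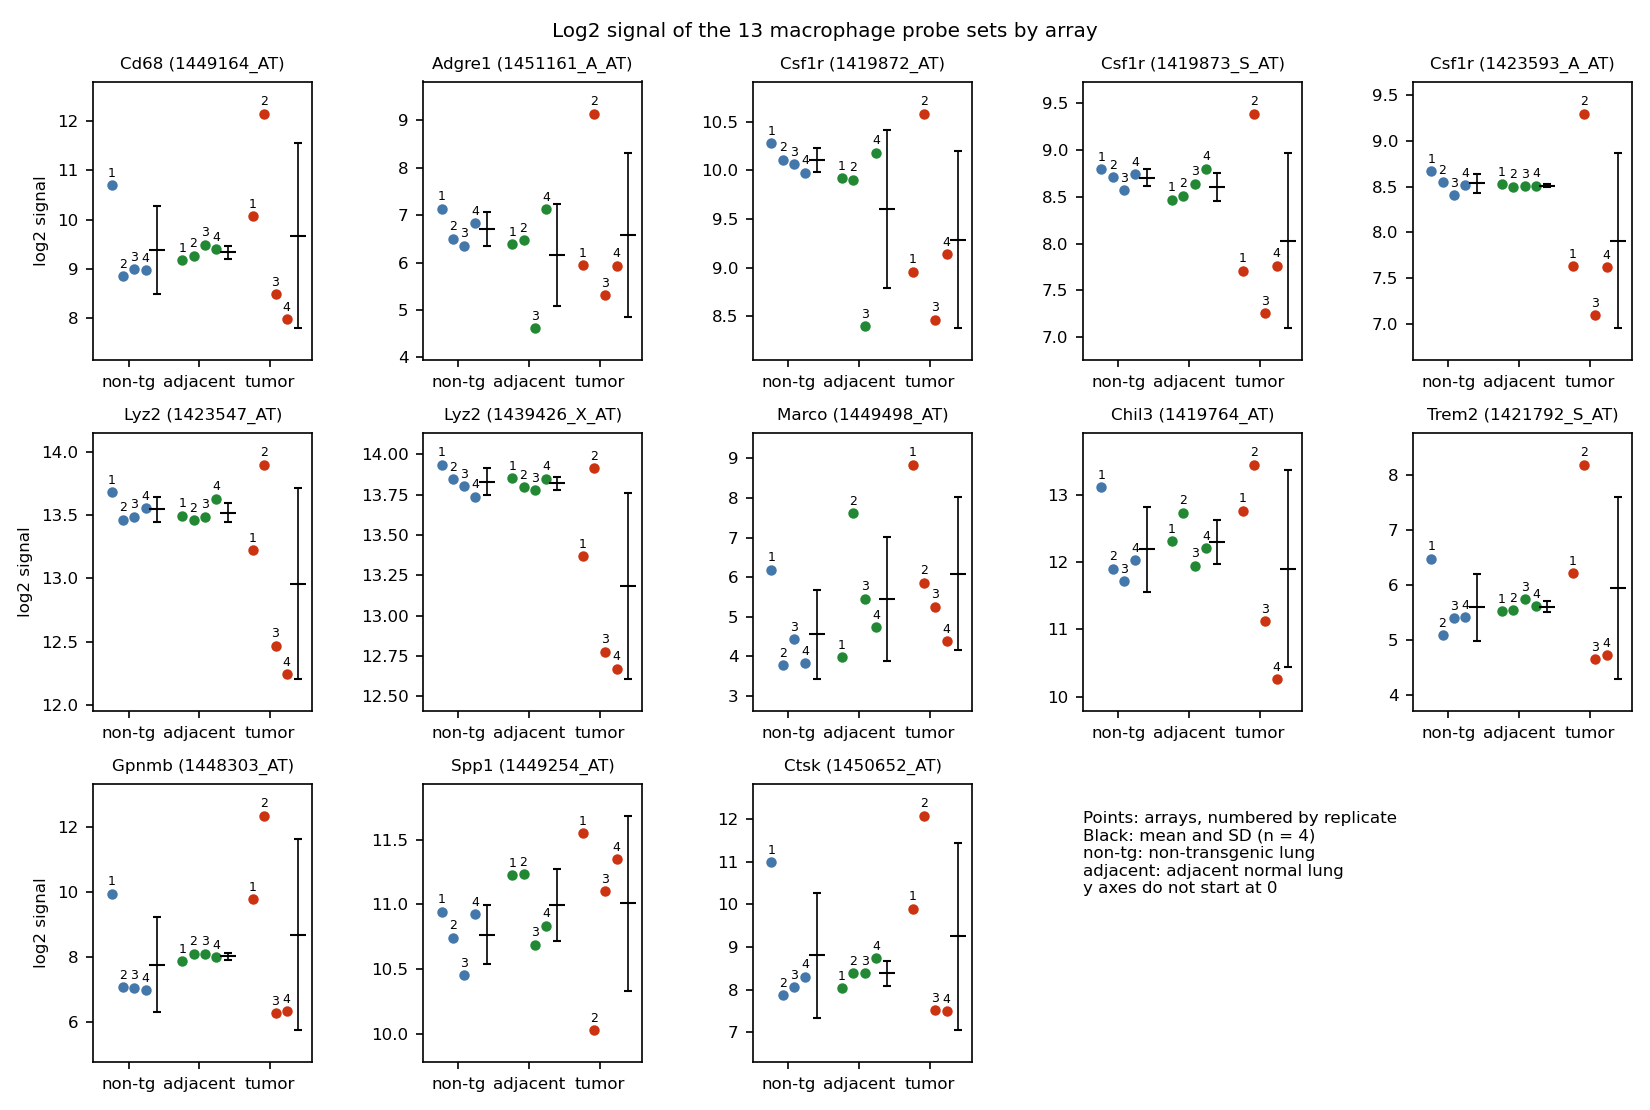
Log2 signal of each of the 13 probe sets in the 12 arrays, with points numbered by replicate and the mean and SD of each group of 4 in black; each panel has its own y axis, which does not start at 0. Tumor 2 is the highest point in 10 panels, and non-transgenic lung 1 is the highest of its group in all 13.

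Cd68 (1449164_AT) encodes a glycoprotein of late endosomes and lysosomes that is widely used as a macrophage marker. Its log2 signal was 10.71, 8.86, 8.99 and 8.98 in non-transgenic lungs 1 to 4, 9.18, 9.27, 9.50 and 9.40 in adjacent normal lungs 1 to 4, and 10.07, 12.15, 8.49 and 7.99 in tumors 1 to 4. Tumors 1 and 2 were above and tumors 3 and 4 below all adjacent normal lungs, so the groups overlapped. Group means were 9.39 ± 0.88, 9.34 ± 0.14 and 9.67 ± 1.87 (SD, n = 4 each) in the same order of groups. The SD among tumors was thus the widest of the 3 and that among adjacent normal lungs the narrowest. Tumor minus adjacent normal lung was 0.34 (SE 0.74, 95% interval -1.27 to 1.95, limma adjusted p = 0.758), and it was -0.49 without tumor 2 (adjusted p = 0.452).

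Gpnmb (1448303_AT), a transmembrane glycoprotein of lysosomes in lipid-laden macrophages, had the widest span over the 12 arrays among the members, 6.07 log2 units. Its signal was 9.95, 7.08, 7.07 and 6.99 in the non-transgenic lungs and 7.88, 8.11, 8.11 and 8.01 in the adjacent normal lungs. The tumors gave 9.79, 12.36, 6.29 and 6.35. Tumor 2 was 4.88 log2 units, or 29.5-fold, above the mean of the other tumors, and tumors 3 and 4 were below every normal lung. Apart from non-transgenic lung 1, the non-transgenic lungs were lower than each of the adjacent normal lungs, which differed little from one another (8.03 ± 0.11, SD, n = 4). The mean of the tumors was 0.67 above that of adjacent normal lung with an interval from -1.87 to 3.20 (adjusted p = 0.693), and the difference without tumor 2 was -0.55 (adjusted p = 0.628).

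Ctsk (1450652_AT), the cysteine protease cathepsin K, which degrades collagen, had signals of 10.99, 7.87, 8.05 and 8.30 in non-transgenic lung. They were 8.03, 8.39, 8.39 and 8.73 in adjacent normal lung and 9.90, 12.08, 7.51 and 7.50 in tumor. The order of tumor 2, non-transgenic lung 1 and tumor 1 at the top and tumors 3 and 4 at the bottom was that of Cd68 and Gpnmb, except that tumors 3 and 4 changed places among themselves in Gpnmb. Tumor 2 exceeded the mean of the other tumors 13.7-fold (3.78 log2 units). The tumor mean differed from adjacent normal lung by 0.86 (SE 0.94, interval -1.20 to 2.92, adjusted p = 0.517) and -0.08 without tumor 2.

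Trem2 (1421792_S_AT) encodes a lipid receptor of macrophages and microglia. Its signal was 6.48, 5.09, 5.40 and 5.41 in non-transgenic lung, 5.53, 5.54, 5.74 and 5.62 in adjacent normal lung and 6.22, 8.18, 4.66 and 4.73 in tumor. Tumor 2 lay 2.98 log2 units (7.88-fold) above the mean of the other tumors. The group difference was again small beside its error, 0.34 (SE 0.63, adjusted p = 0.713), with -0.41 without tumor 2.

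Chil3 (1419764_AT), a secreted chitinase-like protein (Ym1) that alveolar macrophages make in large amounts, ran in the same order at the top. Its signal was 13.11, 11.90, 11.71 and 12.02 in non-transgenic lung, 12.31, 12.73, 11.95 and 12.21 in adjacent normal lung and 12.76, 13.44, 11.12 and 10.26 in tumor. Its close homologue Chil4 may share probes with it, which the files do not settle. The difference between tumor and adjacent normal lung was -0.40 (SE 0.58, adjusted p = 0.631) and -0.92 without tumor 2 (adjusted p = 0.154). In 5 members, Cd68, Chil3, Trem2, Gpnmb and Ctsk, the 3 highest arrays were tumor 2, non-transgenic lung 1 and tumor 1 in that order, and this order was found in 0.616% of the probe sets tested.

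Set against Cd68 across the 12 arrays, the log2 signal of Trem2 had a Pearson r of 0.985 (Spearman rho 0.986), that of Gpnmb 0.981 (0.951), that of Ctsk 0.971 (0.965) and that of Chil3 0.869 (0.881). Without the 2 arrays farthest from the median of Cd68, tumor 2 and non-transgenic lung 1, r was 0.961, 0.938, 0.902 and 0.895 over 10 arrays. Other members were less like Cd68 on both of these measures. Over the 12 arrays r was 0.448, 0.608 and 0.636 in Csf1r, 0.678 and 0.541 in Lyz2, 0.430 in Marco and -0.521 in Spp1. Over the 10 arrays it was 0.034, 0.300 and 0.337 in Csf1r, 0.693 and 0.598 in Lyz2, 0.606 in Marco and 0.058 in Spp1. For deviations from the group means over the 12 arrays, r was 0.986 in Trem2, 0.988 in Gpnmb, 0.980 in Ctsk and 0.927 in Chil3. It was 0.939 and 0.936 in Lyz2, 0.573, 0.811 and 0.834 in Csf1r, 0.715 in Adgre1, 0.430 in Marco and -0.565 in Spp1. Within groups Lyz2 was thus as close to Cd68 as Chil3 was, with tumor 2 and non-transgenic lung 1 included. The other values of Adgre1 are given below. The arrays share tissue pieces and normalization, and these values describe the pattern without a test. The difference between the log2 signals of Trem2 and Cd68 stayed within a range of 0.97 over the 12 arrays, where Cd68 itself spanned 4.16. For Gpnmb minus Cd68 the range was 2.41, with the highest values in tumor 2 (0.21) and tumor 1 (-0.28) and the lowest in tumor 3 (-2.20), so that Gpnmb moved further than Cd68 between these arrays.

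**Figure D2:**
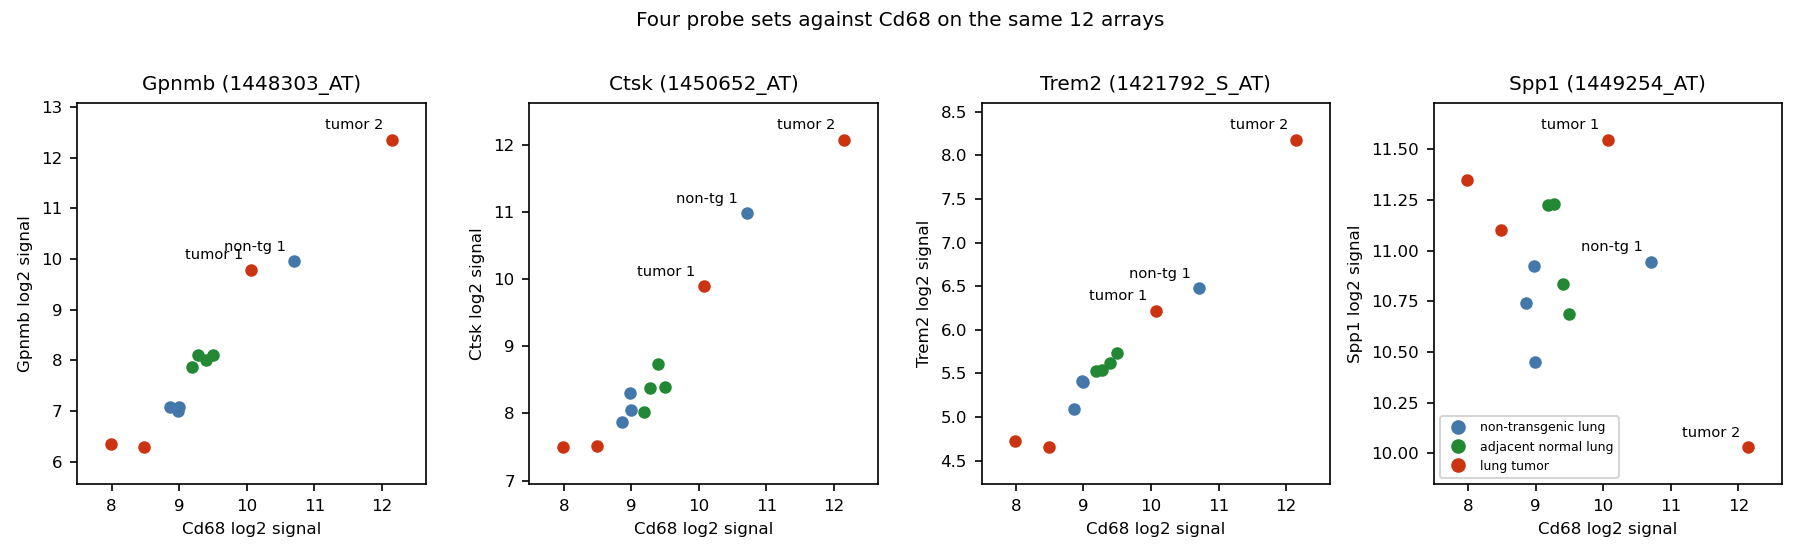
Log2 signal of Gpnmb, Ctsk, Trem2 and Spp1 (y axes) against that of Cd68 (x axes) on the same 12 arrays, 1 point per array colored by group; the axes do not start at 0. The first 3 rise with Cd68 over all groups, while Spp1 is at its lowest, 10.03, in tumor 2, where Cd68 is at its highest, 12.15.

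Csf1r encodes the receptor for the growth factors CSF1 and IL-34 and was measured by 3 probe sets. Probe set 1423593_A_AT gave 8.67, 8.55, 8.41 and 8.51 in non-transgenic lung, 8.53, 8.50, 8.50 and 8.51 in adjacent normal lung and 7.63, 9.30, 7.09 and 7.62 in tumor. Tumors 1, 3 and 4 were below and tumor 2 was above all 8 normal lungs. Probe set 1419873_S_AT gave 8.79, 8.71, 8.57 and 8.74, then 8.47, 8.51, 8.64 and 8.80, and 7.71, 9.39, 7.26 and 7.76 in the same order, and followed 1423593_A_AT with r = 0.988 over the 12 arrays. With all tumors, tumor minus adjacent normal lung was -0.60 (SE 0.35, adjusted p = 0.220) and -0.58 (SE 0.35, adjusted p = 0.231) for these probe sets. Without tumor 2 the differences were -1.06 (SE 0.14, adjusted p = 9.5e-05) and -1.03 (SE 0.15, adjusted p = 0.000153), or 2.09-fold and 2.04-fold lower in tumor. Without tumor 3 they were -0.33 (adjusted p = 0.513) and -0.32 (adjusted p = 0.524). Tumor 2 was the highest of all 12 arrays in both probe sets, so leaving it out lowers the tumor mean, and here it also narrowed the spread. The p-values without tumor 2 hold only for the arrays kept. Tumor 1, which was above all adjacent normal lungs in Cd68, Trem2, Gpnmb and Ctsk, was below all of them in both of these Csf1r probe sets.

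The third Csf1r probe set, 1419872_AT, gave 10.28, 10.11, 10.06 and 9.98 in non-transgenic lung, 9.92, 9.90, 8.40 and 10.18 in adjacent normal lung and 8.96, 10.58, 8.47 and 9.14 in tumor. Adjacent normal lung 3 was the lowest of all 12 arrays here, but not in the other Csf1r probe sets, with which r was 0.765 and 0.762. Tumor minus adjacent normal lung was -0.31 (SE 0.44, adjusted p = 0.621) for it, -0.04 without tumor 3 (adjusted p = 0.960), -0.75 without tumor 2 (adjusted p = 0.104), -0.71 without adjacent normal lung 3 (adjusted p = 0.184) and -1.15 without tumor 2 and adjacent normal lung 3 (SE 0.17, adjusted p = 0.000267).

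Adgre1 (1451161_A_AT) encodes F4/80, a surface receptor that marks mouse tissue macrophages. Its signal was 7.14, 6.50, 6.36 and 6.83 in non-transgenic lung, 6.38, 6.47, 4.61 and 7.13 in adjacent normal lung and 5.95, 9.14, 5.31 and 5.93 in tumor. Adjacent normal lung 3 was again the lowest array, and tumor 2 lay 3.40 log2 units, or 10.6-fold, above the mean of the other tumors. Tumors 1, 3 and 4 were below the 7 normal lungs other than adjacent normal lung 3. Tumor minus adjacent normal lung was 0.43 (SE 0.74, adjusted p = 0.687), -0.42 without tumor 2 (adjusted p = 0.492) and -0.93 without both arrays (SE 0.26, adjusted p = 0.0121). The direction and the call for Adgre1 thus depended on these 2 arrays. Its r with Cd68 was 0.703 over the 12 arrays and 0.035 without tumor 2 and non-transgenic lung 1.

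Lyz2 encodes lysozyme M, an antibacterial enzyme of macrophages, neutrophils and alveolar type II cells. Probe set 1423547_AT gave 13.68, 13.46, 13.49 and 13.55 in non-transgenic lung, 13.49, 13.46, 13.49 and 13.63 in adjacent normal lung and 13.22, 13.90, 12.47 and 12.24 in tumor. Probe set 1439426_X_AT gave 13.93, 13.85, 13.80 and 13.74, then 13.85, 13.80, 13.78 and 13.85, and 13.37, 13.91, 12.78 and 12.67. In both, tumors 1, 3 and 4 were below all 8 normal lungs. The suffix of the second probe set marks probes that may also match other transcripts, and the neighbouring gene Lyz1 is very similar to Lyz2. Tumor minus adjacent normal lung was -0.56 (SE 0.29, adjusted p = 0.160) for the first and -0.64 (SE 0.23, adjusted p = 0.0530) for the second. Without tumor 2 it was -0.87 (SE 0.19, adjusted p = 0.00338) and -0.88 (SE 0.16, adjusted p = 0.000763), or 1.83-fold and 1.84-fold lower. Without tumor 4 it was -0.32 (adjusted p = 0.404) and -0.47 (adjusted p = 0.149). Tumor 2 was the highest tumor in both probe sets, so the p-values without it hold only for the arrays kept.

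Marco (1449498_AT), a scavenger receptor of alveolar macrophages, did not follow tumor 2. Its signal was 6.19, 3.77, 4.44 and 3.82 in non-transgenic lung, 3.98, 7.62, 5.45 and 4.73 in adjacent normal lung and 8.84, 5.86, 5.26 and 4.39 in tumor. Tumor 1 and adjacent normal lung 2 were the highest, and tumor 2 ranked 4 among the 12 arrays. The tumor mean was above that of adjacent normal lung by 0.64 (SE 0.97, interval -1.48 to 2.76, adjusted p = 0.649). Without tumor 1 the difference was -0.28 (adjusted p = 0.828), and without adjacent normal lung 2 it was 1.36 (adjusted p = 0.313), so its sign rested on tumor 1.

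Spp1 (1449254_AT), the secreted phosphoprotein osteopontin, was the only member with its lowest signal in tumor 2. Its signal was 10.95, 10.74, 10.45 and 10.92 in non-transgenic lung, 11.22, 11.23, 10.69 and 10.84 in adjacent normal lung and 11.55, 10.03, 11.10 and 11.35 in tumor. Tumor 2 was the lowest of all 12 arrays and tumor 1 the highest. The difference from adjacent normal lung was 0.01 (SE 0.29, interval -0.61 to 0.64, adjusted p = 0.979), and 0.34 without tumor 2 (adjusted p = 0.153).

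Over all tests of tumor against adjacent normal lung, 0 of the 13 members passed limma's adjusted p under 0.05, where 28.7% of the 23538 probe sets did, and 1 member (Lyz2 1439426_X_AT) was under 0.05 unadjusted. Without tumor 2, 4 members were called lower in tumor, both Lyz2 probe sets and Csf1r 1419873_S_AT and 1423593_A_AT, against 22.1% of the probe sets tested, and 0 were called higher, against 23%. In both directions together, 45.0% of all probe sets tested were called in that fit, so the number of calls rose over the whole array and not in these genes alone. The median difference over the 13 members was 0.01 with all tumors and -0.55 without tumor 2, beside 0.07 over all probe sets tested in both fits. Cd68, Chil3, Trem2, Gpnmb and Ctsk did not pass the test in either fit. In the 4 members called lower without tumor 2, tumor 2 was the highest tumor, so those calls rest on leaving out the array that ran against them.

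**Figure D3:**
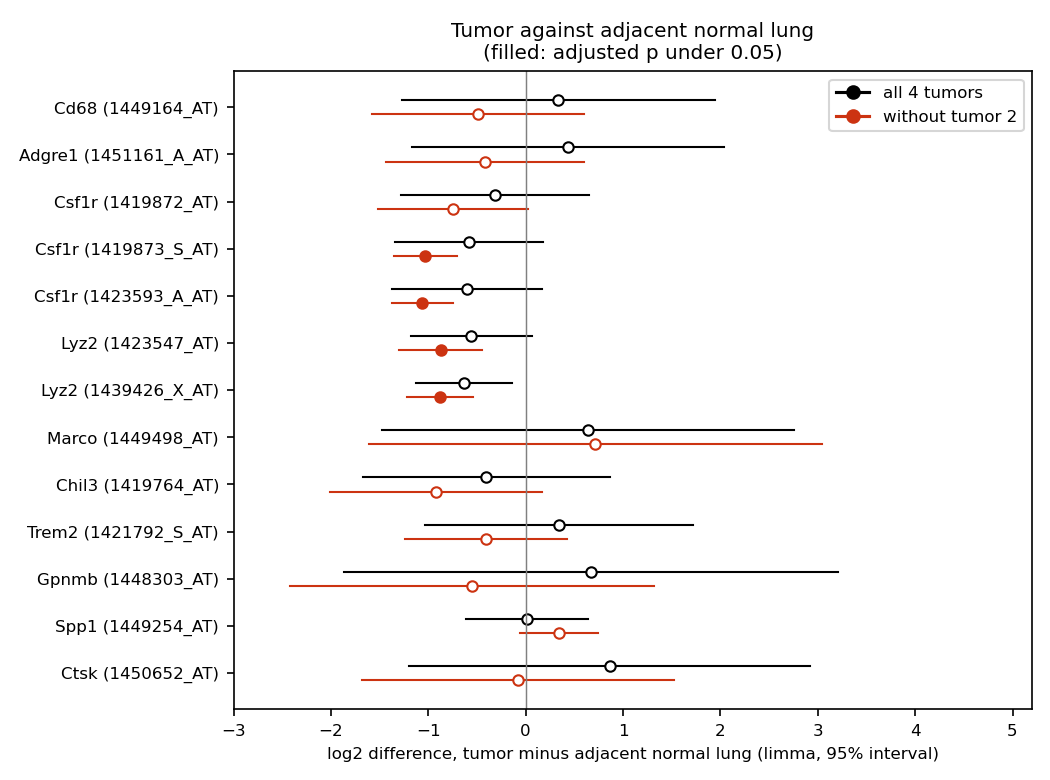
Log2 difference of tumor minus adjacent normal lung for each probe set with its 95% interval from limma, with all 4 tumors (black) and without tumor 2 (red); filled points have an adjusted p under 0.05. With all tumors every point is open, and without tumor 2 the Lyz2 points (-0.87 and -0.88) and 2 of the Csf1r points (-1.03 and -1.06) are filled. Tumor 2 was the highest tumor in each of the filled probe sets.

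Within replicate numbers, tumor was above adjacent normal lung in 7 of the 13 members for number 1, in 11 for number 2, in 3 for number 3 and in 1 for number 4. The shares of all probe sets tested that were higher in tumor within each number were not counted. Csf1r and Lyz2 enter these counts with several probe sets each. Tumor 2 exceeded adjacent normal lung 2 by 4.25 in Gpnmb, 3.69 in Ctsk, 2.88 in Cd68, 2.66 in Adgre1 and 2.64 in Trem2, whereas the difference was -1.20 in Spp1 and -1.76 in Marco. Tumor 1 exceeded adjacent normal lung 1 by 1.92 in Gpnmb, 1.87 in Ctsk and 0.89 in Cd68, and by 4.86 in Marco, whereas the 6 probe sets of Adgre1, Csf1r and Lyz2 were lower in tumor 1, with differences from -0.96 to -0.27. For tumors 3 and 4 the differences were -1.83 and -1.66 in Gpnmb, -0.88 and -1.24 in Ctsk and -1.01 and -1.41 in Cd68. In these 3 genes numbers 1 and 2 were thus positive and numbers 3 and 4 negative. Spp1 was higher in tumor for numbers 1, 3 and 4, by 0.33, 0.41 and 0.51, and Adgre1 was higher for number 3, by 0.70, where adjacent normal lung 3 was low.

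**Figure D4:**
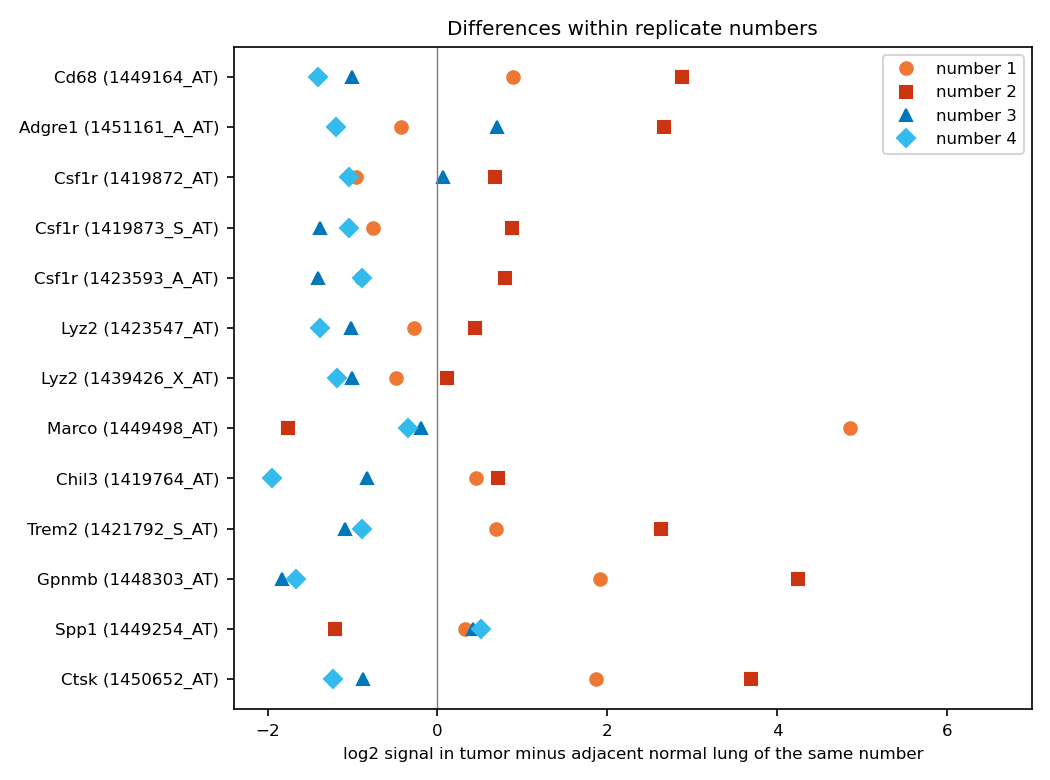
Log2 signal in tumor minus that in the adjacent normal lung of the same replicate number (x axis) for each probe set, with 1 symbol per number. Numbers 3 and 4 lie below 0 and number 2 above 0 for Cd68, Trem2, Gpnmb and Ctsk, and number 2 lies below 0 for Marco (-1.76) and Spp1 (-1.20).

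Against non-transgenic lung, 1 of the 13 members was called, Lyz2 1439426_X_AT, which fell by 0.65 in tumor (SE 0.23, adjusted p = 0.0456), where 32.5% of the probe sets tested were called. That call was lost when any 1 array other than tumor 2 was left out (adjusted p up to 0.131). This comparison and the preceding one share the tumor arrays. Without tumor 2, 5 members were called lower, against 22.5% of the probe sets tested. They were both Lyz2 probe sets (-0.90 and -0.89), Csf1r 1419873_S_AT (-1.13), 1423593_A_AT (-1.09) and 1419872_AT (-1.25), with adjusted p from 7.1e-05 to 0.0118. One member was called higher in that fit, against 24.3%, and it was Spp1 (0.57, SE 0.18, adjusted p = 0.0237). Tumor 2 was the highest tumor in the members called lower and the lowest in Spp1. Apart from that of Lyz2 1439426_X_AT, these calls thus rest on leaving tumor 2 out.

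Adjacent normal and non-transgenic lung addressed whether the transgenic lung outside the tumor differed in these genes. Of the 13 members 0 passed limma's test and 0 were under 0.05 unadjusted, with 0% of all probe sets tested called and 835 under 0.05 unadjusted. Differences between the means ran from -0.56 (Adgre1) to 0.89 (Marco). For Gpnmb the 95% interval ran from -2.28 to 2.79, so a change of several-fold in either direction lay within it, whereas for Lyz2 1439426_X_AT it ran from -0.50 to 0.48. Without non-transgenic lung 1, which stood above its group as described next, the difference was 0.98 in Gpnmb, where it was 0.25 with all arrays, 0.39 in Cd68 (-0.05 with all arrays), 0.31 in Ctsk (-0.42 with all arrays) and 1.44 in Marco, and 0 members passed the test (adjusted p = 1.00 for each, limma).

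Within non-transgenic lung, array 1 was the highest of its 4 in all 13 members, where 25.3% of the probe sets tested had it highest. In 6 members, Cd68, Marco, Chil3, Trem2, Gpnmb and Ctsk, it lay more than 1 log2 unit above each of the other 3, against 0.956% of the probe sets tested. The excess over the mean of the other 3 was 2.91 log2 units in Gpnmb (7.51-fold) and in Ctsk (7.52-fold), 2.18 in Marco, 1.76 in Cd68, 1.23 in Chil3 and 1.18 in Trem2. In the 3 Csf1r probe sets, the 2 Lyz2 probe sets and Spp1 it was only 0.12 to 0.24. Tumor 2 and non-transgenic lung 1 were the top 2 arrays in that order in 9 members, against 3.39% of the probe sets tested. In each of the 6 members that set non-transgenic lung 1 apart from its group, tumor 1 was also above all adjacent normal lungs.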

How the data were processed

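The authors deposited 1 log2 signal per probe set and array. The methods name Robust Multichip Average and GeneSifter, GCRMA, with no version, is the tool in the processing notes of the submitters, and the values do not settle which was used. GCRMA pulls dim probe sets to low values, which can widen log2 differences such as those of Marco. Control probe sets (64) were left out, and 23538 of 45037 others (52.3%) lay above 4.18 in at least 4 arrays and were tested. limma 3.58.1 (R 4.3.3; lmFit, eBayes) was fitted over all 3 groups, and Benjamini-Hochberg adjustment covered all probe sets tested, with 0.05 as the threshold. Summaries were made in Python 3.11.15. The script was tested on simulated data. The number of arrays limits the precision, and p-values measure the spread between arrays of the same group. The main fit does not use the mouse that the labels imply is shared by tumor and adjacent normal lung of a number. All 13 members were named, by rule. The members and lists were chosen with earlier results of these data known. Other macrophage genes and markers of other cell types were not analysed here, since no table pairing probe sets with genes was used.

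The labels imply that tumor and adjacent normal lung of 1 number came from 1 mouse. Deviations from the group means of such pairs correlated by -0.03, 0.10, 0.07 and 0.11, and 1 of 4 tumors correlated best with its own number. Tests were repeated without the filter, with a stricter one (the 75th percentile, 6.47), after quantile normalization or median centring, with a floor at the 25th percentile (2.81), with a trended and robust fit, on only the 8 arrays compared, with a replicate block, with mouse as random block, with the analysis of variance of the methods, with each array left out, and with tumor 2 left out together with adjacent normal lung 3. Leaving out tumor 2 with non-transgenic lung 1 was added after seeing the data. Tumor 2 and adjacent normal lung 3 are the arrays that stood apart in these same data, so p-values without both are not independent of that choice.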

Additional observations from a re-analysis of the deposited data

Results flagged for a closer look

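In 5 of the 39 sets of 4 arrays (13 probe sets in 3 groups), 1 array was separated from the other 3 by more than 0.829 of the range of its group, Dixon's 95% limit. The limit is set so that about 5% of sets of independent, normally distributed values pass it. The sets here share arrays and some share a gene. The share over all probe sets tested was not counted, so no excess over chance was measured. Non-transgenic lung 1 was so far above its group in Cd68 (10.71, others 8.86 to 8.99), Gpnmb (9.95, others 6.99 to 7.08) and Ctsk (10.99, others 7.87 to 8.30). Tumor 2 was so far above the other tumors in Adgre1 (9.14, others 5.31 to 5.95). Adjacent normal lung 3 was so far below its group in Csf1r 1419872_AT (8.40, others 9.90 to 10.18). The 3 sets of non-transgenic lung 1 come from 1 array and from genes that moved together over the arrays.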

How the results depend on the processing

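For tumor against adjacent normal lung, 0 members were called, and 1 (Lyz2 1439426_X_AT) with the filter at the 75th percentile, the trended and robust fit or the mouse as a random block, 6 without tumor 2 and adjacent normal lung 3 (47.6% of all probe sets tested), and 0 to 4 with each array left out, the 4 without tumor 2 (45.0%). For tumor against non-transgenic lung, 1 was called, and 0 with no filter, median centring or only the 8 arrays, 7 without tumor 2 and adjacent normal lung 3 (52.3% of all), 6 without tumor 2 and non-transgenic lung 1 (43.1%), and 0 to 6 with each array left out, 6 without tumor 2 (46.8%) and 0 without any one of the other arrays. Over the 3 groups together, 0 members were called (28.6% of all probe sets tested), with 1 by the unadjusted analysis of variance of the methods (39.7%; 0 adjusted), 7 without tumor 2 and adjacent normal lung 3 (48.9%) and 0 to 5 with each array left out, the 5 without tumor 2 (44.2%). With both directions together, shares of the members called in the fits without tumor 2 were thus below or near those of all probe sets, some slightly above. By direction, without tumor 2 alone, 4 members were lower (22.1% of all) and 0 higher (23%) against adjacent normal lung. Against non-transgenic lung, 5 were lower (22.5% of all) and 1 higher (24.3%). The members called lower are all probe sets of Csf1r and Lyz2, so they do not count as separate genes. Tumor 2, the array left out, was the highest tumor in each of them. These counts are therefore not read as a result about the members. Adjacent normal against non-transgenic lung gave 0 throughout. The replicate block gave 0, 1 and 0 members called in these 3 pairwise comparisons and changed no call.

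For tumor minus adjacent normal lung, leaving out 1 array in turn gave log2 differences from -0.49 to 0.90 in Cd68, -0.42 to 0.86 in Adgre1, -0.28 to 1.36 in Marco, -0.92 to 0.14 in Chil3, -0.41 to 0.77 in Trem2, -0.55 to 1.47 in Gpnmb, -0.17 to 0.34 in Spp1 and -0.082 to 1.44 in Ctsk, so that none of these had a settled direction. Without tumor 2 and adjacent normal lung 3 it was -0.44 in Cd68, -0.93 in Adgre1, -0.36 in Trem2, -0.52 in Gpnmb and -0.080 in Ctsk, and quantile normalization gave -0.082 in Spp1. Csf1r and Lyz2 kept a negative difference under each alternative run, but with each array left out it ran from -0.75 to -0.04 in Csf1r 1419872_AT, -1.03 to -0.32 in 1419873_S_AT, -1.06 to -0.33 in 1423593_A_AT, -0.87 to -0.32 in Lyz2 1423547_AT and -0.88 to -0.47 in 1439426_X_AT, each largest without tumor 2 and smallest without tumor 3 (Csf1r) or tumor 4 (Lyz2). Median centring moved the median of all probe sets tested from 0.07 to 0.18. The cause of these changes was not tested beyond the arrays left out. Signal over background is not known, since the values carry no detection calls.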
